A study of Mus musculus with 4 samples.

Results

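Synaptic vesicle and scaffold genes were described in embryonic mouse dorsal cortex at E18.5, shortly before birth. The set holds 29 genes out of 19938 that had a feature of their own on the array. The members are a named list of 30 genes, and for each the feature with a single gene symbol and the highest mean over the 4 arrays was taken. In the platform annotation the feature for Vamp2, the vesicle SNARE synaptobrevin, also carries a second gene's symbol, so Vamp2 was left out. Of the 29 genes, 19 act on the presynaptic side and 10 on the postsynaptic side. All 29 passed the filter on dim genes (a mean log2 value of at least 6.16), so each was tested.

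The series compared 2 mutant arrays with 2 control arrays of dorsal cortex, a tissue that was dissected and not cultured. The control embryos have the genotype Mek1fl/wt, Mek2-/-, and the mutant embryos Mek1fl/fl, Mek2-/- with NestinCre. Both groups thus lack Mek2, although the design text names the controls as wild type. NestinCre drives the recombinase in progenitors of the nervous system, so floxed Mek1 is targeted in the neurons and glia that descend from them. Microglia and vessels come largely from other lineages. It is named for the mutants only, and its own effect and that of the loss of Mek1 cannot be told apart. MEK1 and MEK2 are the kinases that activate ERK1 and ERK2. As Mek2 is absent from both groups, the comparison addresses which transcripts differ when floxed Mek1 is targeted as well. The values are log2 expression after RMA, the authors' normalization, which brings the arrays to a similar distribution. A difference of 1 on this scale is a 2-fold change.

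A synapse releases transmitter when a vesicle docks at the active zone and its SNARE protein binds those of the plasma membrane. Synaptotagmins sense the calcium that enters, complexins hold and release the assembled SNAREs, and the scaffold proteins Bassoon and Piccolo keep vesicles and channels in place. On the other side, scaffold proteins of the PSD-95, Homer and Shank families anchor glutamate receptors and calcium-dependent kinases under the membrane. In the mouse cortex most synapses form after birth, and at E18.5 neurons already transcribe many genes of this machinery.

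Upstream sequences are shown for 4 members, chosen after their values were seen. Cplx1, Pclo and Sv2a are examples of presynaptic members higher at an unadjusted p under 0.05 that held a motif match, and Syn1 alone held a CRE. Stx1a and Camk2b, also at an unadjusted p under 0.05, held a match and are not printed, and the starts of Sv2b, whose difference exceeds that of Sv2a, held none. Of the 29 genes, 24 matched an entry of the RefSeq promoter table (GRCm38.p6), with 39 transcript starts. Snap25, Syt4, Shank1, Shank2 and Camk2a had none. The 250 bases before each start were searched on both strands for 3 motifs. These were the CRE, the element bound by CREB (TGACGTCA), an ETS motif (CCGGAAG) and the GC box bound by Sp1 (GGGCGG). CREB and ETS factors can be reached by ERK signalling. The GC box was found in 16 of the 39 member promoters, and in 32.7% of all 32851 promoters of the table. The CRE was found in 1, that of Syn1, and the ETS motif in 1, that of Homer1, against 1.55% and 6.91% of all promoters. A match of letters is a description and not a shown site. Capitals mark the motifs in the sequences, in which no matches overlapped. The sequences run 5′ to 3′ on the strand of the gene and end at the base before its start. They lie at chr5:108550028-108550277 (minus strand, Cplx1), chr5:14514668-14514917 (plus strand, Pclo), chr3:96180977-96181226 (plus strand, Sv2a) and chrX:20920919-20921168 (minus strand, Syn1).
Cplx1: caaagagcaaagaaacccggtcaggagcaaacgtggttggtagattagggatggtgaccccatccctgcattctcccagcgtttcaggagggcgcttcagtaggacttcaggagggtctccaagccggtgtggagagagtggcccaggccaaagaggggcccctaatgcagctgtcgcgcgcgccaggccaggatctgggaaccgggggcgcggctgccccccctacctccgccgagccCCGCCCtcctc
Pclo: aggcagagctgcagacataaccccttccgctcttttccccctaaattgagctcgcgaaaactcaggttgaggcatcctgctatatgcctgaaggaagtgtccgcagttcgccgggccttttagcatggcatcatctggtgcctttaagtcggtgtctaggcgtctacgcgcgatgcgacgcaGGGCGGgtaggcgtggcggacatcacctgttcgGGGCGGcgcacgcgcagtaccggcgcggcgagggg
Sv2a: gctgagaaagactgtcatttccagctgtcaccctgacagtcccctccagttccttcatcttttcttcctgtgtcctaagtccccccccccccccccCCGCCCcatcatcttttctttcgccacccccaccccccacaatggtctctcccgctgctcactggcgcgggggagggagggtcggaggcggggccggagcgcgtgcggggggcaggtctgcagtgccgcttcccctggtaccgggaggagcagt
Syn1: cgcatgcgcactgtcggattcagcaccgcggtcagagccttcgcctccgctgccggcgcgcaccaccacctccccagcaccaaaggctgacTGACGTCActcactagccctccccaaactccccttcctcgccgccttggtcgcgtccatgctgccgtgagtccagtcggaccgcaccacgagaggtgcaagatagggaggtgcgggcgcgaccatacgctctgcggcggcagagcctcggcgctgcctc
The CRE of Syn1 begins 159 bases before the start, and the GC box of Cplx1 begins 11 bases before it.

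The arrays were similar over all genes. Over the 13956 genes tested, the root mean square difference was 0.149 between the 2 controls, 0.191 between the 2 mutants, and 0.178 to 0.230 between a control and a mutant. Each group held 1 array with high Xist, so the arrays of a group came from different embryos. Map2k1, the gene of Mek1, was at 8.76 and 8.84 in controls and at 8.50 and 8.73 in mutants, with an adjusted p of 0.469 in limma. Map2k2, the gene of Mek2, was between 8.47 and 8.64 on all 4 arrays. Whether these features have probes in the deleted parts is not known here, so they do not check the genotypes. For cortical neurons, Neurod6, a factor of pyramidal neurons, lay between 12.02 and 12.11 on the 4 arrays. Tbr1, a factor of deep-layer neurons, lay between 10.97 and 11.14. Mutant 1 stood apart: 81 genes were lower there than on each of the other 3 arrays by at least 0.5, against 4, 5 and 1 genes for control 1, control 2 and mutant 2. In bulk tissue, fewer cells of a type and less RNA per cell cannot be told apart.

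No synaptic gene differed between mutants and controls past the threshold. In the limma fit 0 of 29 were lower at an adjusted p under 0.05, where 1.01% of all genes tested were, and 0 of 29 were higher, where 0.0143% were. The differences were small, from -0.30 for Camk2a to 0.27 for Cplx1, and 23 of the 29 were under 0.2 in size. At an unadjusted p under 0.05, 7 of the 29 (24.1%) were higher and 0 were lower, against 5.73% and 7.69% of all genes. These 7 were Cplx1, Sv2b, Shank1, Pclo, Sv2a, Camk2b and Stx1a. Without control 1 they numbered 1 and without control 2 they numbered 2, and without mutant 2 there were 4 higher and 4 lower. In such fits 1 group is a single array. Without control 1 the difference of Sv2a was 0.16 ± 0.098 (SE), beside 0.18 ± 0.061 with all 4 arrays. That of Cplx1 was 0.32 ± 0.092 (SE) without control 1 and 0.23 ± 0.092 (SE) without control 2, beside 0.27 ± 0.061. Both mutant arrays lay above both control arrays for 13 genes (44.8%), and below both for 1 gene, Nrxn3. Over all genes these shares were 22.8% and 21.4%.

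The median of the 29 differences was 0.043, beside 0.0053 over all genes tested, and 22 of the 29 (75.9%) were above 0, beside 52.3% of all genes. Above the control mean lay 25 members in mutant 2 and 18 in mutant 1, beside 8162 and 6363 of all 13956 genes. Without mutant 1 the median of the members was 0.13, beside 0.021 over all genes. The size of a change that these arrays could have missed is limited for most members. The 95% limma interval of the difference lay within 0.5 on the log2 scale (1.41-fold) in both directions for 25 of the 29. The other 4 were Camk2a, Syn2, Slc17a6 and Slc17a7, and for Camk2a the interval reached beyond 2-fold.

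**Figure D1:**
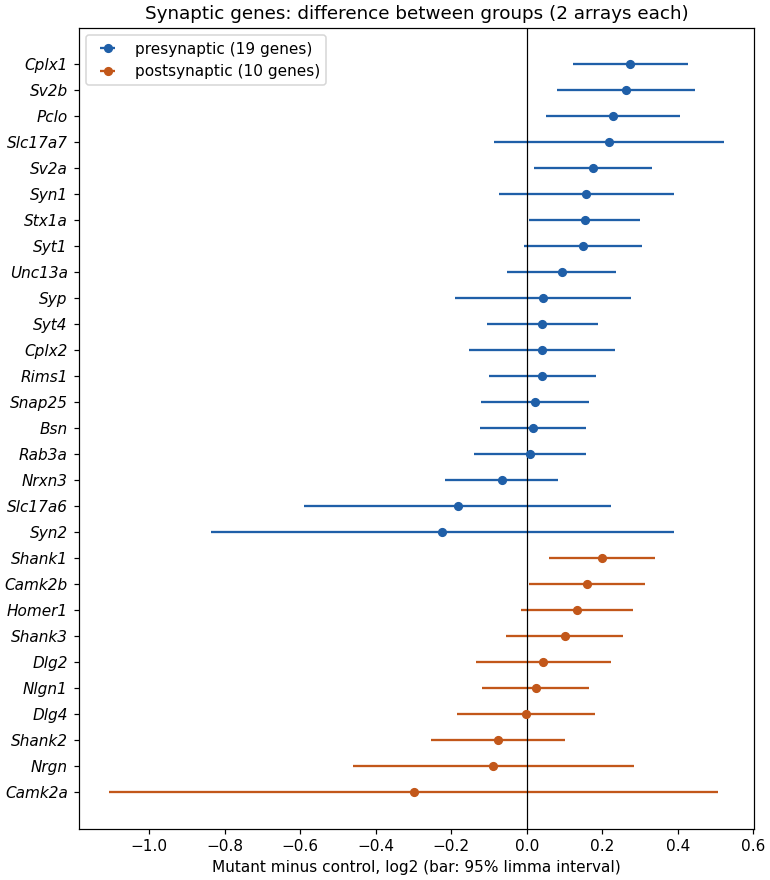
Difference between mutants and controls (x axis, log2, with 95% limma intervals) for each of the 29 synaptic genes (y axis), presynaptic genes in blue and postsynaptic genes in orange. Intervals exclude 0 for the 7 genes at an unadjusted p under 0.05, all of them higher, and are widest for Camk2a, from -1.11 to 0.51.

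Presynaptic and postsynaptic genes were close in their median, at 0.044 and 0.033. Of the 19 presynaptic genes, 16 had a difference above 0, 9 were higher on both mutant arrays than on both controls, and 5 reached an unadjusted p under 0.05. Of the 10 postsynaptic genes, these counts were 6, 4 and 2. As shares they were 84.2%, 47.4% and 26.3% for presynaptic genes and 60.0%, 40.0% and 20.0% for postsynaptic genes. Over all genes they were 52.3%, 22.8% and 5.73%, so the postsynaptic share above 0 was near that of all genes. In mutant 1 the medians against the control mean were 0.052 for presynaptic and 0.026 for postsynaptic genes, and in mutant 2 they were 0.16 and 0.12. Over all genes these medians were -0.013 in mutant 1 and 0.021 in mutant 2. Mutant 2 was above mutant 1 for 19 of the 29 members (65.5%) and for 64.1% of all genes. Members are not replicates of a condition, so the difference between the sides was not tested.

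Among proteins of the vesicle membrane and its surface, both mutant arrays lay above both controls for the 2 SV2 genes, and the groups overlapped for Syp, Rab3a, Syn1 and Syn2. Sv2a, a transporter-like glycoprotein of most vesicles, was at 10.17 and 10.20 in controls and at 10.31 and 10.41 in mutants. The groups did not overlap, and the difference was 0.18 ± 0.06 (SE; adjusted p = 0.319 in limma). Sv2b, its relative in many excitatory neurons, was at 9.03 and 9.09 in controls and at 9.25 and 9.40 in mutants. This difference was 0.26 ± 0.07 (SE; adjusted p = 0.226 in limma). Both mutants were above both controls here too.

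Synaptophysin, encoded by Syp, is the most used marker of synaptic vesicles. It was at 10.49 and 10.55 in controls, 10.44 in mutant 1 and 10.68 in mutant 2, so the mutants lay on either side of the controls. Rab3a, the small GTPase that guides vesicles to release sites, was between 9.34 and 9.40 on all 4 arrays. Synapsins tether vesicles in the reserve pool. Syn1 was at 9.44 and 9.57 in controls and at 9.56 and 9.76 in mutants, which overlapped (difference 0.16 ± 0.09, SE; adjusted p = 0.540 in limma).

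Syn2 behaved differently on the 2 mutant arrays. It was at 9.67 and 9.76 in controls, at 9.11 in mutant 1 and at 9.87 in mutant 2. Mutant 1 was thus the lowest of the 4 arrays and mutant 2 the highest. The mean difference was -0.22 ± 0.24 (SE; adjusted p = 0.766 in limma). Without mutant 1 it was 0.16 (adjusted p = 0.405), and without mutant 2 it was -0.61 (adjusted p = 0.0079 in limma). In the latter fit mutant 1 alone stands for the mutants, the spread within groups comes from the controls, and mutant 1 is assumed to vary like them. That fit called 881 of all genes (6.31%), against 143 with all 4 arrays.

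In the fusion machinery all 7 genes had a difference above 0. Cplx1, complexin 1, which binds the assembled SNARE complex, had the smallest p of all members. It was at 9.68 and 9.58 in controls and at 9.91 and 9.90 in mutants. The mutants agreed to 0.02 and lay above both controls, with a difference of 0.27 ± 0.06 (SE), 1.21-fold (95% interval 1.09 to 1.35-fold), that did not pass over all genes (adjusted p = 0.155 in limma). By its p, Cplx1 ranked 486 among the 13956 genes. Cplx2, the other complexin of the forebrain, was at 9.28 and 9.20 in controls and at 9.20 and 9.36 in mutants. These overlapped.

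Stx1a, the plasma membrane SNARE syntaxin 1A, was at 9.61 and 9.59 in controls and at 9.72 and 9.79 in mutants. Both mutants were higher (difference 0.15 ± 0.06, SE; adjusted p = 0.362 in limma). Snap25, its partner SNARE, was between 10.90 and 10.96 on all 4 arrays, with a difference of 0.022 and a 95% interval from -0.12 to 0.16. Syt1, the calcium sensor of fast release, was at 11.37 and 11.39 in controls and at 11.48 and 11.58 in mutants. The groups of Syt1 did not overlap, and its difference was 0.15 ± 0.06 (SE; adjusted p = 0.395 in limma). Syt4, a synaptotagmin of dense-core and other secretory vesicles, was between 12.18 and 12.27 on the 4 arrays. Unc13a, the priming factor Munc13-1, was at 9.67 and 9.74 in controls and at 9.80 and 9.79 in mutants. Its 2 dimmer features differed by 0.16 and 0.0083, beside 0.093 for the one used.

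Of the active zone scaffolds, Pclo stood above controls and the others differed by no more than 0.041. Pclo, which encodes Piccolo, was at 9.33 and 9.44 in controls and at 9.66 and 9.57 in mutants. Both mutants were higher, by 0.23 ± 0.07 (SE; adjusted p = 0.270 in limma). Bsn, which encodes the related scaffold Bassoon, was between 8.15 and 8.20 on all arrays, with a difference of 0.016. Rims1, which links vesicles to calcium channels, was between 9.09 and 9.17, with a difference of 0.041 whose groups did not overlap.

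The vesicular glutamate transporters load vesicles with glutamate, and in the cortex Slc17a7 (VGLUT1) takes over from Slc17a6 (VGLUT2) as neurons mature. Slc17a7 was at 8.58 and 8.52 in controls, at 8.59 in mutant 1 and at 8.94 in mutant 2. Mutant 1 was level with the controls and mutant 2 was above them (difference 0.22 ± 0.12, SE; adjusted p = 0.521 in limma). Slc17a6 was at 10.08 and 10.27 in controls, at 9.76 in mutant 1 and at 10.22 in mutant 2. Here mutant 2 was among the controls and mutant 1 below them (difference -0.18 ± 0.16, SE; adjusted p = 0.696 in limma). Nrxn3, a presynaptic adhesion receptor of the neurexin family, was at 9.91 and 9.97 in controls and at 9.84 and 9.90 in mutants, a difference of -0.066 ± 0.06 (SE; adjusted p = 0.704 in limma).

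**Figure D2:**
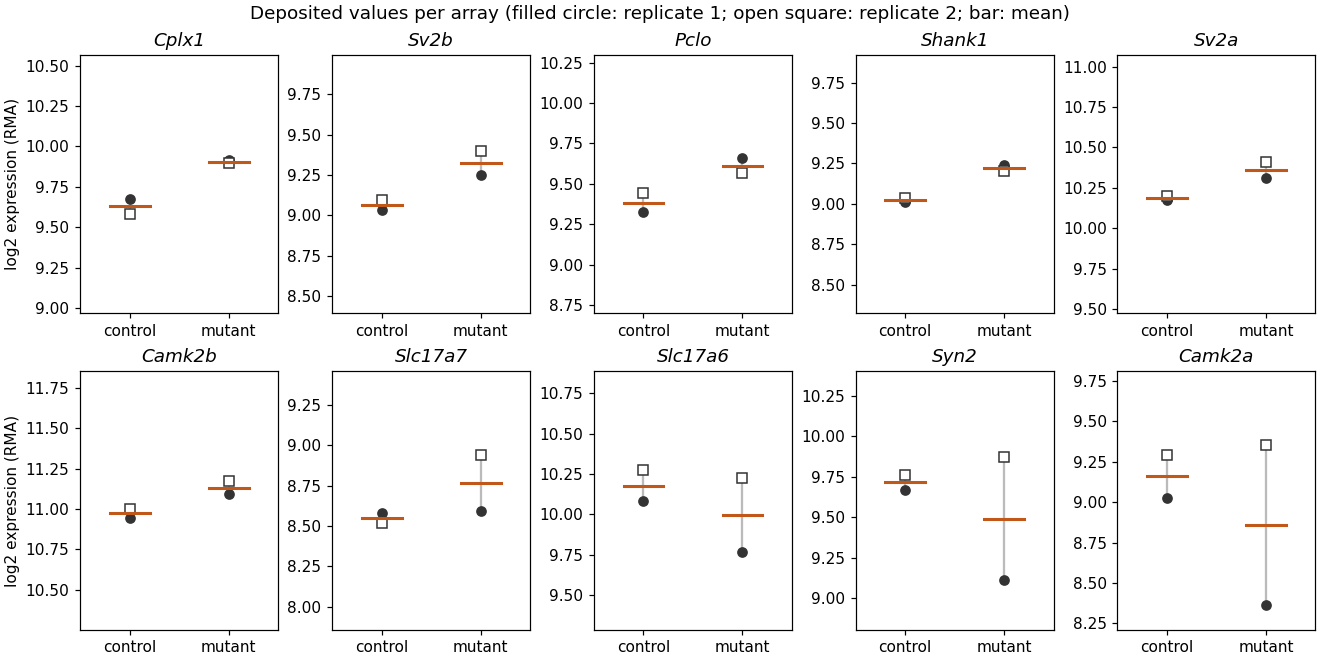
Deposited log2 values (y axis, each panel spanning 1.6) of 10 synaptic genes on the 2 control and 2 mutant arrays, with group means as bars. The mutants lie together above the controls for Cplx1, Pclo and Shank1, and far apart for Syn2 and Camk2a.

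Among the 6 postsynaptic scaffold genes, 4 (66.7%) had a difference above 0, beside 52.3% of all genes. The other 2, Shank2 and Dlg4, had a difference below 0. Shank1, a master scaffold of the postsynaptic density, was at 9.01 and 9.04 in controls and at 9.24 and 9.20 in mutants. The groups were tight and apart, with a difference of 0.20 ± 0.06 (SE), 1.15-fold, that did not pass over all genes (adjusted p = 0.231 in limma). Shank3 was at 8.14 and 8.16 in controls and at 8.20 and 8.30 in mutants (adjusted p = 0.563 in limma). Shank2 was at 8.67 and 8.53 in controls and at 8.54 and 8.50 in mutants, which overlapped. Its other features differed by 0.099 and -0.015, beside -0.077 for the one used, so the sign for Shank2 depends on the feature.

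Homer1, which couples metabotropic glutamate receptors to the Shank scaffold, was at 9.92 and 9.87 in controls and at 10.05 and 9.996 in mutants. Both mutants were above both controls (difference 0.13 ± 0.06, SE; adjusted p = 0.427 in limma). The membrane-associated guanylate kinases hold NMDA and AMPA receptors. Dlg4, which encodes PSD-95, was at 10.65 and 10.76 in controls and at 10.64 and 10.76 in mutants. Its mean difference was -0.0011, and its 95% interval ran from -0.18 to 0.18. Dlg2, which encodes PSD-93, was between 11.16 and 11.31 on the 4 arrays. Nlgn1, neuroligin 1, the adhesion partner of neurexins at excitatory synapses, was between 10.07 and 10.13.

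The calcium and calmodulin genes held the member with the largest negative difference, Camk2a. The kinase CaMKII is the most abundant enzyme of the postsynaptic density, and Camk2a encodes its forebrain subunit. Camk2a was at 9.02 and 9.30 in controls, at 8.37 in mutant 1 and at 9.36 in mutant 2. Between the mutants lay 0.99, more than for any other member, and the mean difference was -0.30 ± 0.32 (SE; adjusted p = 0.761 in limma). Without mutant 1 it was 0.20 (adjusted p = 0.491), and without mutant 2, in the same fit on mutant 1 alone that called 881 of all genes, it was -0.79 (adjusted p = 0.0125 in limma).

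Camk2b, the subunit that binds actin and appears earlier in development, was at 10.95 and 10.997 in controls and at 11.09 and 11.17 in mutants. It was higher on both mutant arrays, by 0.16 ± 0.06 (SE; adjusted p = 0.355 in limma). Nrgn, neurogranin, a calmodulin-binding protein of dendrites, was at 8.32 and 8.43 in controls, at 8.07 in mutant 1 and at 8.50 in mutant 2. As with Syn2 and Camk2a, mutant 1 was the lowest array and mutant 2 the highest.

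Mutant 1 alone was low for 4 members. It lay under the lowest of the other 3 arrays by 0.66 for Camk2a, 0.56 for Syn2, 0.32 for Slc17a6 and 0.25 for Nrgn, and for the other members by no more than 0.059. Without mutant 1 all 4 had a difference above 0, between 0.046 for Slc17a6 and 0.20 for Camk2a. A step of at least 0.5 was reached by Camk2a and Syn2 and by 0.580% of all genes. One of at least 0.25 was reached by these 4 members and by 3.15% of all genes. The 4 were grouped by these same gaps, and the step of 0.25 lies just under the gap of Nrgn. These shares are therefore a description and not a test. A list of 13 genes of hippocampus and medial pallium was written after the low values in mutant 1 were seen, so its values are a description and not a test. Of the 13, 1 lay above the control mean in mutant 1 and 5 did in mutant 2. Its median against the control mean was -0.89 in mutant 1 and -0.068 in mutant 2, and the mean log2 level of the 13 genes was 8.42 and 8.57 in controls, 7.75 in mutant 1 and 8.47 in mutant 2. Nrp2, a semaphorin receptor, was at 10.29 and 10.32 in controls, 8.95 in mutant 1 and 10.42 in mutant 2. Prox1, a factor of dentate granule cells, was at 7.88 and 8.04, then 7.07 and 7.87. Fzd9 (0.025), Wfs1 (-0.15) and Grik4 (-0.16) differed little from the control mean in mutant 1. Genes outside that list were low there too. The interneuron genes Sst and Calb2 lay at -1.07 and -0.83 against the control mean in mutant 1, and at 0.21 and 0.19 in mutant 2. They were the lowest of the 11 interneuron genes in mutant 1, and the median of the 11 there was -0.15. Npy (0.44) and Lhx6 (0.094) lay above the control mean in mutant 1. Nrp2, Prox1, Fzd9, Wfs1, Grik4, Sst and Calb2 were named after their values were seen. None of the 13 was called in limma, and 2 were lower at an unadjusted p under 0.05, Emx2 (-0.70, adjusted p = 0.363) and Lef1 (-0.31, adjusted p = 0.373). The part of tissue composition in the values of Camk2a, Syn2, Slc17a6 and Nrgn was not tested.

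**Figure D3:**
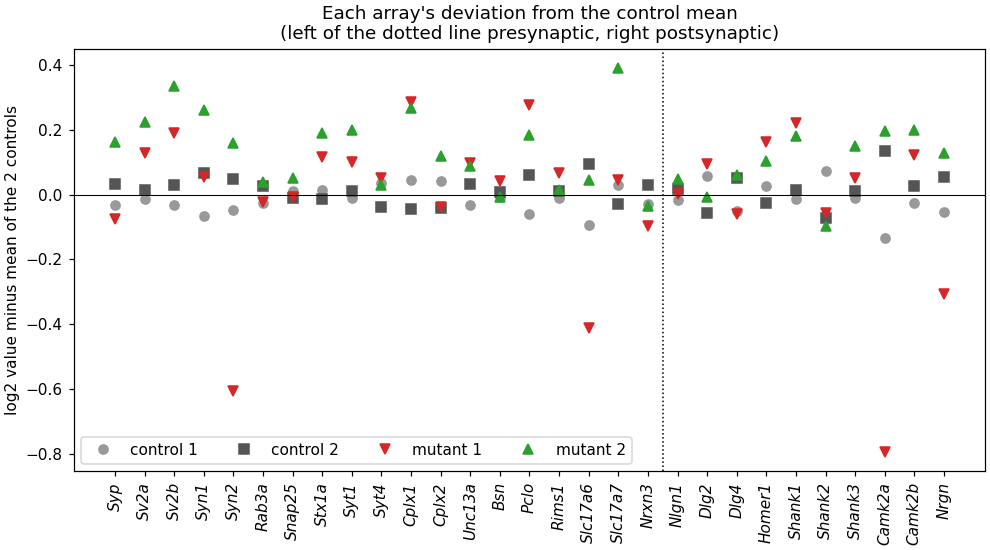
Deviation of each array from the mean of the 2 controls (y axis, log2) for the 29 genes (x axis), presynaptic to the left of the dotted line and postsynaptic to the right. Mutant 2 lies above 0 for 25 genes and mutant 1 for 18, and mutant 1 is far below the other arrays for Syn2, Slc17a6, Camk2a and Nrgn.

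Related members were compared as log2 differences within each array, for 10 pairs. With 2 arrays against 2 the exact permutation test cannot go below a two-sided p of 0.33, and after adjustment over the 10 pairs the smallest was 0.417, so no pair could pass. Slc17a7 relative to Slc17a6 was at -1.50 and -1.75 in controls and at -1.17 and -1.28 in mutants. Both mutants were higher, with a shift of 0.40, although it came from a low Slc17a6 in mutant 1 and from a high Slc17a7 in mutant 2. Cplx1 relative to Cplx2 was at 0.39 and 0.38 in controls and at 0.71 and 0.53 in mutants. Shank1 relative to Shank2 was at 0.34 and 0.51, then 0.70 and 0.70, and this pair carries the uncertainty of the Shank2 feature. Bsn relative to Pclo was lower in mutants, at -1.18 and -1.28 against -1.46 and -1.42. The groups overlapped for Dlg4 relative to Dlg2 and for Camk2a relative to Camk2b.

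Other genes of the synapse had medians between 0.038 and 0.055, close to that of the members. Of all genes tested, 5.73% were higher and 7.69% lower at an unadjusted p under 0.05 in limma. Of 54 further presynaptic genes tested, none was called in limma, 5 were higher and 1 lower at an unadjusted p under 0.05, and the median difference was 0.053. The smallest p belonged to Syt7, a slow calcium sensor (0.26, adjusted p = 0.178), and Rab3b (0.27, adjusted p = 0.241). Of 32 further adhesion genes none was called, 3 were higher and 0 lower at an unadjusted p under 0.05, and the median was 0.055. Cadm3, a nectin-like adhesion molecule (0.22, adjusted p = 0.208 in limma), and Lrrc4, a netrin-G ligand (0.18, adjusted p = 0.303), led this list. Of 40 further postsynaptic genes none was called, 5 were higher and 3 lower at an unadjusted p under 0.05, and the median was 0.038. Baiap2, the actin regulator IRSp53, was higher by 0.28 (adjusted p = 0.126 in limma), and Cacng3, a subunit that traffics AMPA receptors, differed by -0.36 (adjusted p = 0.189). Camk2d, another CaMKII gene, was at 8.13 and 8.65 in controls, 7.30 in mutant 1 and 8.62 in mutant 2, lowest in mutant 1 like Camk2a.

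Neuronal genes at large were not called either. The counts at an unadjusted p under 0.05 below stand beside 5.73% higher and 7.69% lower over all genes tested in limma. Of 21 pan-neuronal genes, of which Snap25 and Syt1 are also members, none was called in limma, 1 was higher and 0 lower at an unadjusted p under 0.05, and the median was 0.069. Elavl3, a neuronal RNA-binding protein, was higher by 0.17 (adjusted p = 0.297 in limma), as was Mapt, which encodes tau (adjusted p = 0.374). The mean log2 level of these 21 genes was 11.14 and 11.16 in controls and 11.20 and 11.24 in mutants. For cortical identity, the 10 genes of cortical excitatory neurons had a median of 0.11, with none called, 4 higher and 0 lower at an unadjusted p under 0.05, led by Sox5 (0.41, adjusted p = 0.239 in limma) and Foxp2 (0.33, adjusted p = 0.291). The 11 interneuron genes had a median of -0.061 with none called and 1 higher at an unadjusted p under 0.05, and lay at -0.15 in mutant 1 and 0.15 in mutant 2. Npy (0.30, adjusted p = 0.324 in limma) and Dlx1 (-0.16, adjusted p = 0.461) had their smallest p.

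Among the lists for other cell types, called genes were found for radial glia and astrocytes and for oligodendrocyte precursors, all of them lower. Over all genes tested, 1.01% were called lower in limma, and 7.69% were lower at an unadjusted p under 0.05. Of 15 genes of radial glia and astrocytes tested, 7 fell past the threshold and none rose in limma, and the median was -0.47. Of 6 genes of oligodendrocyte precursors, 3 fell and none rose, and the median was -1.40. The 7 were Slc1a3, Fabp7, Aldoc, Aldh1l1, Sox9, Hopx and Tnc, and the 3 were Pdgfra, Olig1 and Gpr17. The mean log2 level of the glial list was 9.58 and 9.62 in controls and 8.71 and 8.87 in mutants. This mean covers 16 genes, as it includes Aqp4, which was too dim to be tested. The mean log2 level of the precursor list was 7.65 and 7.67 in controls against 6.36 and 6.34 in mutants. The 6 genes of intermediate progenitors had a median of -0.22 with none called and 4 lower at an unadjusted p under 0.05, led by Insm1 (-0.25, adjusted p = 0.210 in limma) and Mfng (-0.19, adjusted p = 0.304). The 6 microglia genes tested, of 8, had a median of -0.22 with none called and 3 lower at an unadjusted p under 0.05, led by C1qb (-0.36, adjusted p = 0.149 in limma) and Cx3cr1 (-0.28, adjusted p = 0.206). The 8 endothelial genes had a median of -0.005 with none called and 0 at an unadjusted p under 0.05. It lay at -0.11 in mutant 1 and 0.089 in mutant 2, with mutant 2 above mutant 1 for all 8, and Cdh5 and Esam differed by 0.055 and 0.064 (adjusted p = 0.753 and 0.761 in limma). The part of these other cells in the slightly higher values of the synaptic genes was not tested.

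**Figure D4:**
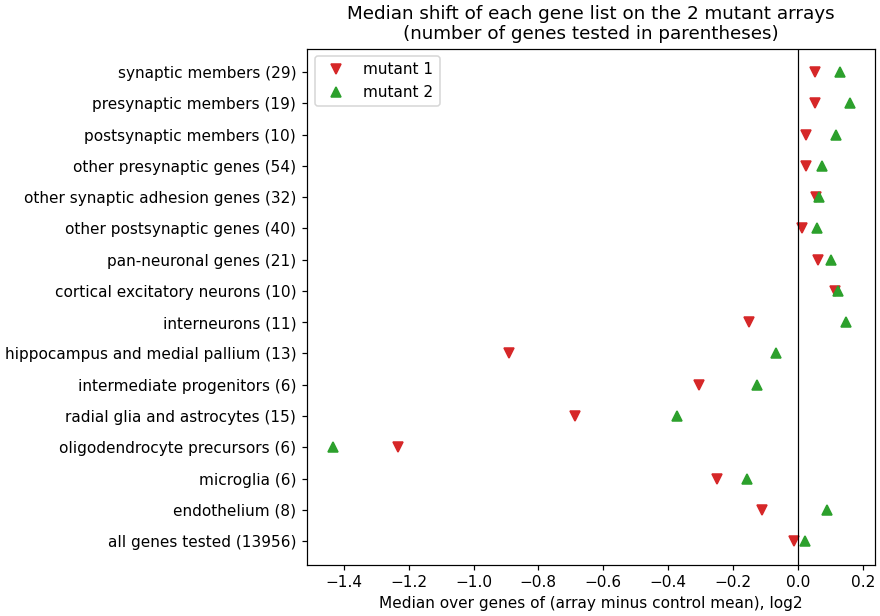
Median over the genes of each list of the array's value minus the control mean (x axis, log2) on mutant 1 and mutant 2, with the number of genes tested. Synaptic and neuronal lists other than interneurons lie between 0.012 and 0.16, and glial lists lie below 0 on both arrays. The hippocampal list, written after the values of mutant 1 were seen, is at -0.89 on mutant 1 and -0.068 on mutant 2.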

How the data were processed

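The deposited table holds log2 expression values that the authors made with RMA, per the submitters' processing notes. Per the labels, total RNA (200 ng) from E18.5 dorsal cortex was biotin-labelled for a single-colour whole-transcript array. The version of RMA, the build and any filters are not stated there. The log base follows from the range of the values. Scanner intensities and detection calls were not used. Precision is limited by the 4 arrays.

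Of 35557 features, 21789 have 1 symbol in the platform annotation. The symbols were updated by Entrez identifier (GRCm38.p6 table), which matched 21698. The brightest feature per gene was kept. Genes with a mean under the 30th percentile (log2 6.16) were left out, which left 13956. The comparison used R 4.3.3 and limma 3.58.1 (lmFit, then eBayes with no trend or covariate, two-sided), with Benjamini-Hochberg adjustment over all genes tested and a threshold of 0.05. The fit was tested on simulated data, in which the planted changes were far larger than the difference of any member. Changes as small as those of the members were not tried there. Pairs of members were compared with an exact permutation test in scipy 1.17.1. The labels state no separate animals for the replicates. The Xist values show that the arrays of a group came from different embryos. The p-values measure the spread between these arrays.

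All members and the members of other lists with the smallest p, or those called, are named. Members, lists, tests and alternatives were chosen with earlier results of these data known, and the hippocampal list and the promoters shown were chosen after seeing the values.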

Additional observations from a re-analysis of the deposited data

How the results depend on the processing

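No member was called in the other 8 settings that kept all 4 arrays: no filter or a filter at the 50th percentile, a variance trend, median centring, a further quantile normalization, the mean of all features, the replicate block and embryo sex. Leaving out 1 array gave 0 to 2 members called lower (2, Syn2 and Camk2a, without mutant 2, where 5.24% of all genes were called lower) and 0 called higher. At an unadjusted p under 0.05 these ranges were 0 to 4 lower and 1 to 9 higher, beside 0 and 7. With embryo sex as a covariate 4 were higher. When 1 array was left out the median difference ranged from 0.052 to 0.13 for all members, from 0.052 to 0.16 for presynaptic and from 0.026 to 0.12 for postsynaptic members, beside 0.043, 0.044 and 0.033 with all 4 arrays.

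In all, 16 members were higher, and Nrxn3 lower, under each of the 12 alternatives. The filters, the variance trend, the replicate block and embryo sex leave each difference unchanged, so no sign could change there. The mean of all features alters only Shank2 and Unc13a among the members. Where the groups do not overlap, leaving out 1 array cannot change the sign either. The sign changed for Dlg4 with centring (0.019) and for Shank2 with the mean of its features (0.0023). It also changed for 11 members when 1 array was left out. Their ranges were -0.075 to 0.16 for Syp, -0.61 to 0.16 for Syn2, -0.022 to 0.040 for Rab3a, -0.0071 to 0.051 for Snap25, -0.037 to 0.12 for Cplx2, -0.0082 to 0.041 for Bsn, -0.41 to 0.046 for Slc17a6, -0.013 to 0.0995 for Dlg2, -0.061 to 0.059 for Dlg4, -0.79 to 0.20 for Camk2a and -0.31 to 0.13 for Nrgn. Apart from the features of Shank2, the cause was not tested.

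Replicate numbers are shared by the groups, but nothing says what they mark. Deviations of same-numbered arrays from their group means correlated at -0.16 over the 13956 genes. With the replicate block 7 members were higher at an unadjusted p under 0.05 and 116 of all genes were called, beside 143 without it. With the crossed pairing, which is the same as embryo sex, 17 of all genes were called.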
